A study of Macaca fascicularis with 2 samples.

Results

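Endothelial and angiogenic genes were followed in gastrocnemius, a calf muscle, of the cynomolgus macaque (Macaca fascicularis), in 1 library labelled lean from a chow diet and 1 labelled non-lean from a high fat diet. The list held 39 genes by symbol, and all 39 were found among the 28175 genes of the files. Its genes were chosen by function, with earlier results of these data known. It comprised 34 genes of endothelial cells, the 3 ligands VEGFA, VEGFB and ANGPT1 that muscle fibres are taken to make, the lymphatic growth factor VEGFC, and TEAD4, a transcription factor that muscle cells also use. The series asks which genes differ in muscle between lean and obese animals. The labels do not say how many animals gave each library, nor their age or sex.

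Capillaries run along every muscle fibre and bring it oxygen, glucose and fatty acids. Fibres release VEGFA, which binds the receptors KDR and FLT1 on endothelial cells and drives capillary growth. VEGFB binds FLT1 but not KDR, and VEGFC acts through FLT4, mainly on lymphatic vessels. ANGPT1 activates the receptor TEK (TIE2) and steadies vessels, while ANGPT2, released by endothelial cells, can oppose it. DLL4 on sprouting tip cells signals through Notch receptors on neighbouring cells and restrains further sprouting.

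The lean library held 15983348 counts and the non-lean library 12731974. Levels are given as CPM, the counts of a gene per 1000000 counts of its library after scaling with the trimmed mean of M-values. ACTA1, skeletal actin, stood at 80371 CPM in lean and 60127 CPM in non-lean muscle. The endothelial markers PECAM1 and VWF were present in both, each above 50 CPM. The genes with a mean of at least 1 CPM over both libraries, 13707 in all, are called tested genes, and all 39 members were among them. Ratios are given as log2 of non-lean over lean, and brackets hold the 95% counting interval. A gene is called higher or lower when that interval excludes 0. With 1 library per group there is no replicate error and no test, so each difference is between these libraries and not shown to be between diets. Transcript lengths were not used here, so levels are not compared between genes.

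Of the 34 endothelial genes, 26 had a ratio below 0, a lower value in the non-lean library, and 19 did so with total counts as the scaling. Over all tested genes, 6965 of 13707 ratios lay below 0, or 5486 of 13725 with total counts. VEGFA had a higher value under each scaling. Of the 34, 17 had intervals below 0 and 4 above, and the median log2 ratio was -0.31, against -0.01 over all tested genes. Of all 39 members, 18 had intervals below 0, where the share over all tested genes was 28.8%, and 6 above, where it was 25.8%. The other 15 intervals held 0, where the share was 45.5%. None of the 39 was 2-fold apart in either direction, whereas 4.91% of tested genes reached 2-fold upward and 7.16% downward. Those shares depend on the level of the genes: at a mean of at least 5 CPM, 231 of 9608 genes reached 2-fold upward and 485 downward. At 1.5-fold, 2 members were higher, VEGFA and NOTCH4 (against 11.9% of tested genes), and 8 were lower (against 15.4% of tested genes), namely CDH5, CLDN5, CAV1, AQP1, TEK, SOX17, EPHB4 and TEAD4.

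The count of intervals depended on scaling. With total counts, which raise the median of all tested genes by 0.14, 11 members had intervals below 0 and 10 above, while 20.9% of tested genes lay below 0 and 35.0% above. Among tested genes at least 2-fold apart, 40.7% were higher in the non-lean library with the trimmed mean and 56.0% with total counts. Relative to the median of tested genes, the endothelial median was -0.29 with the trimmed mean and -0.30 with total counts. Scaling adds the same amount to every log2 ratio, so this difference can move only through genes that cross the limit of 1 CPM. Its near equality is therefore no check on scaling.

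**Figure D1:**
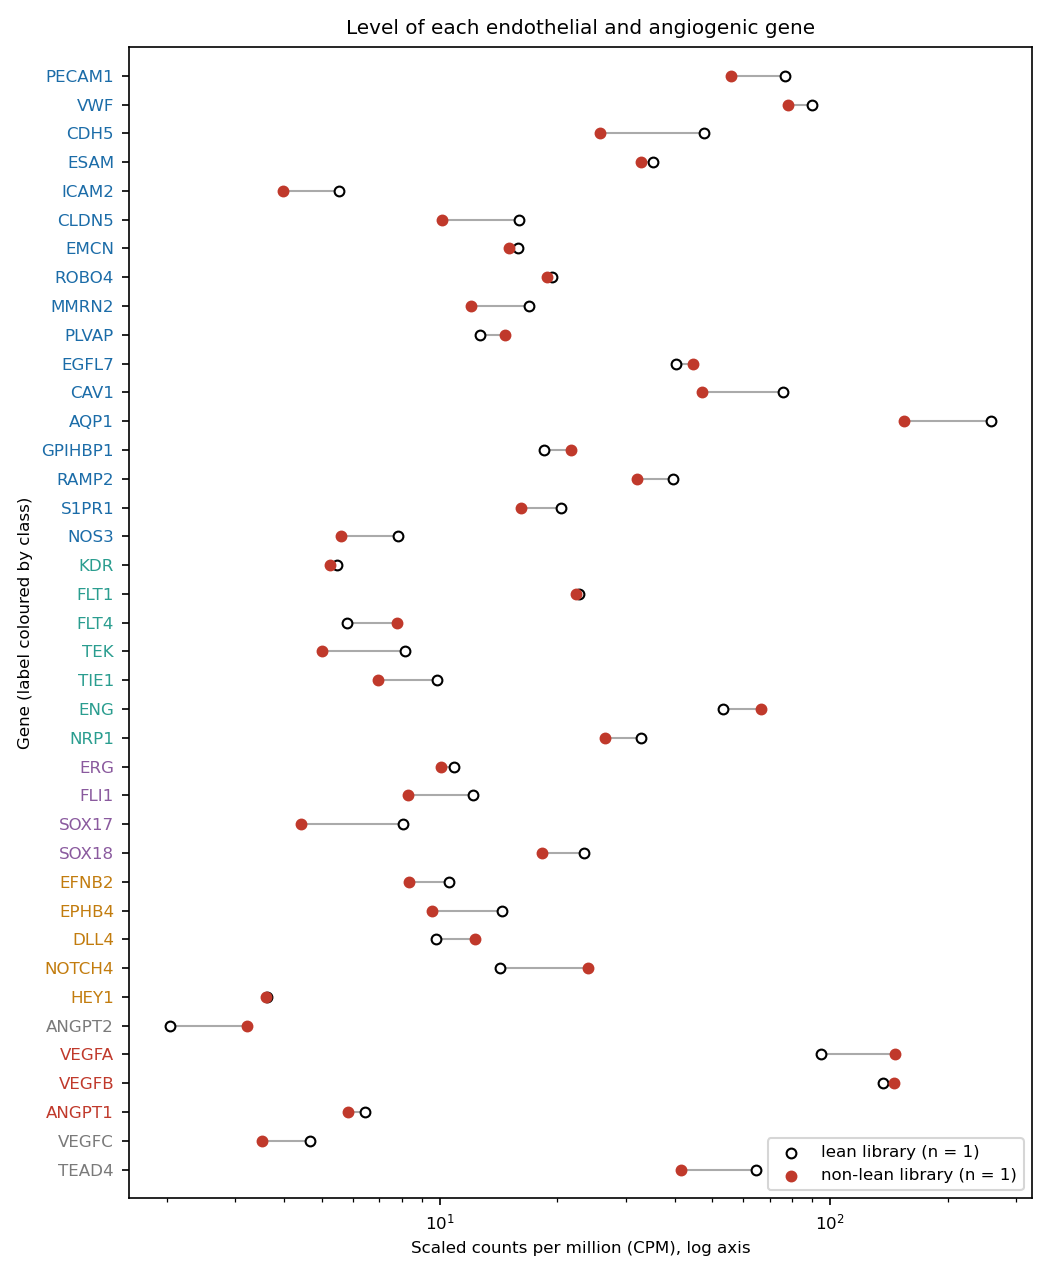
Scaled CPM of the 39 genes on a log axis, with open circles for the lean and filled circles for the non-lean library (n = 1 each). Gene labels are coloured by class, and most endothelial genes have the filled circle to the left, while VEGFA and NOTCH4 have it to the right.

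PECAM1 (CD31), an adhesion molecule of all endothelial cells, had 1167 counts in lean and 745 in non-lean muscle, or 76.7 and 55.7 CPM. Its log2 ratio was -0.46 (-0.60 to -0.33). VWF, the clotting factor stored in endothelial granules, had 1368 and 1043 counts, or 89.9 and 78.0 CPM, a ratio of -0.20 (-0.32 to -0.09). By these values PECAM1 was 1.38-fold and VWF 1.15-fold lower. With total counts the interval of VWF held 0, at -0.06 (-0.18 to 0.05). Counted on the leading transcript alone, PECAM1 stood at 0.45 and VWF at 0.10, the other direction. In bulk tissue, fewer cells of a type and less RNA per cell cannot be told apart.

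Junction genes differed in size. CDH5, VE-cadherin, which holds endothelial cells together, had 723 and 345 counts, 47.5 and 25.8 CPM, and the lowest ratio of all members, -0.88 (-1.07 to -0.69). Of the tested genes, 9.17% had a lower ratio than CDH5. CLDN5, the main claudin of endothelial tight junctions, had 243 and 136 counts and a ratio of -0.65 (-0.96 to -0.34). ESAM, another junction molecule, had 537 and 439 counts and a ratio of -0.10 (-0.29 to 0.08) that held 0. ICAM2, which leukocytes bind, had 84 and 53 counts and a ratio of -0.47 (-1.002 to 0.04).

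Channel and caveolar genes were lower as well. AQP1, the water channel of capillary endothelium, had 3930 and 2070 counts, or 258 and 155 CPM, a ratio of -0.74 (-0.82 to -0.66). CAV1, which forms the caveolae of endothelial cells, adipocytes and smooth muscle, had 1152 and 629 counts, or 75.7 and 47.0 CPM, a ratio of -0.69 (-0.83 to -0.54). AQP1 was the largest term of the summed endothelial level, which was 1043.5 CPM in lean and 831.6 CPM in non-lean muscle. The log2 ratio of that sum was -0.33 (-0.36 to -0.29), and without AQP1 it was -0.21 (-0.25 to -0.18).

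Genes of vascular tone, signalling and matrix were lower with the trimmed mean, but with total counts the intervals of RAMP2, S1PR1 and NOS3 held 0. RAMP2, the partner of the adrenomedullin receptor, had 602 and 428 counts and a ratio of -0.31 (-0.49 to -0.12). S1PR1, the receptor through which sphingosine 1-phosphate stabilises vessels, had 311 and 216 counts and a ratio of -0.34 (-0.60 to -0.08). NOS3, the endothelial nitric oxide synthase, had 119 and 75 counts and a ratio of -0.48 (-0.92 to -0.05). MMRN2, a matrix protein of endothelial cells, stood at -0.49 (-0.79 to -0.20).

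The other identity genes lay near 0. GPIHBP1, which carries lipoprotein lipase to the capillary lumen, had 282 and 290 counts, or 18.5 and 21.7 CPM, and a ratio of 0.23 (-0.01 to 0.47). PLVAP, which forms the diaphragms of fenestrae and caveolae, had 193 and 197 counts and a ratio of 0.22 (-0.08 to 0.51). EGFL7, a secreted endothelial factor, had 613 and 597 counts and a ratio of 0.15 (-0.02 to 0.31). The sialomucin EMCN at -0.08 (-0.36 to 0.19) and the guidance receptor ROBO4 at -0.04 (-0.29 to 0.21) also held 0. Over the 17 identity genes, 10 were lower (against 28.8% of all tested genes), none was higher (against 25.8%), and the median was -0.34. With total counts 6 were lower (against 20.9%) and 3, GPIHBP1, PLVAP and EGFL7, were higher (against 35.0%).

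**Figure D2:**
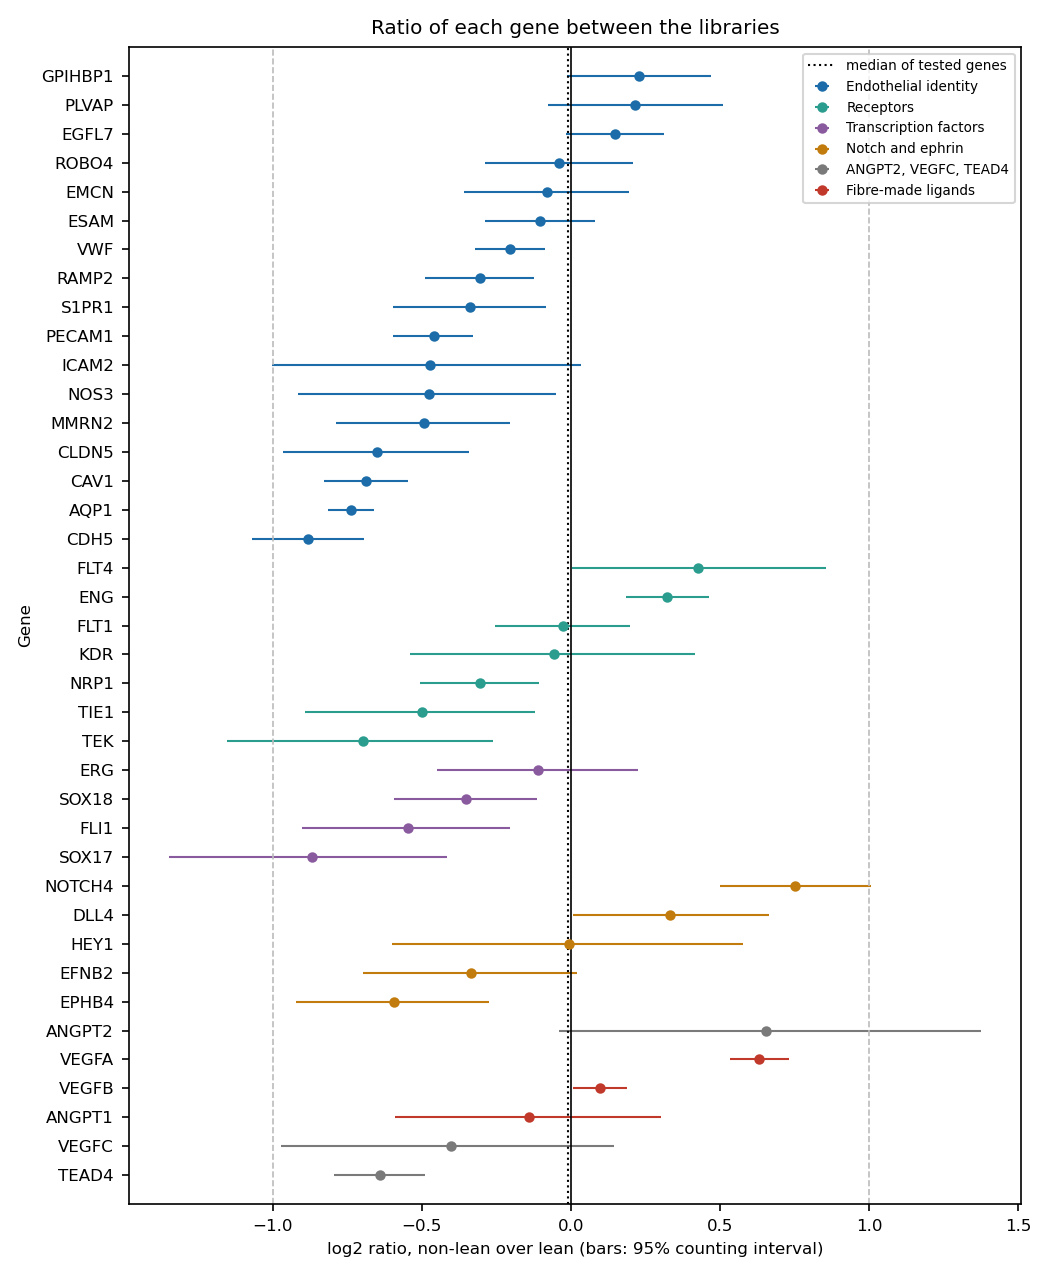
Log2 ratio of non-lean over lean for each gene, grouped by class, with 95% counting intervals as bars, a dotted line at the median of tested genes (-0.01) and dashed lines at 2-fold. CDH5 and SOX17 lie furthest to the left at -0.88 and -0.87, and NOTCH4 furthest to the right at 0.75.

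The receptors went both ways, with a median of -0.06 that was 0.08 with total counts. KDR (VEGFR2), the main signalling receptor of VEGFA, had 83 and 70 counts, 5.45 and 5.23 CPM, and a ratio of -0.06 (-0.54 to 0.42). FLT1 (VEGFR1), which binds VEGFA and VEGFB, had 347 and 299 counts, 22.8 and 22.4 CPM, and a ratio of -0.03 (-0.26 to 0.20). For neither was a difference detectable at this depth. NRP1, a co-receptor of VEGFA, had 498 and 354 counts and was lower at -0.31 (-0.51 to -0.11), a call lost with total counts.

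TEK and TIE1 are the receptor pair of the angiopoietin pathway. TEK had 124 and 67 counts, 8.15 and 5.01 CPM, and was lower at -0.70 (-1.15 to -0.26), but stood at 0.37 on its leading transcript alone. TIE1 had 150 and 93 counts, 9.86 and 6.95 CPM, and was lower at -0.50 (-0.89 to -0.12), an interval that held 0 with total counts (-0.75 to 0.02). ENG, endoglin, a co-receptor for bone morphogenetic proteins, had 809 and 889 counts, 53.2 and 66.5 CPM, and was higher at 0.32 (0.18 to 0.46). FLT4 (VEGFR3) had 88 and 104 counts and a ratio of 0.43 with an interval that began just above 0 (0.004 to 0.85). It held 0 with DESeq2 size factors, under which 1 of the 7 receptors was higher (against 23.7% of all tested genes) in place of 2 (against 25.8%).

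Of the 4 endothelial transcription factors 3 were lower (against 28.8% of all tested genes), or 2 with total counts (against 20.9%). SOX17, a factor of arterial endothelium, had 123 and 59 counts, 8.08 and 4.41 CPM, and a ratio of -0.87 (-1.35 to -0.41). The ETS factor FLI1 had 185 and 111 counts and a ratio of -0.55 (-0.90 to -0.20). SOX18 had 356 and 245 counts and a ratio of -0.35 (-0.59 to -0.11), whose interval held 0 with total counts. ERG, the ETS factor that maintains endothelial identity, had 166 and 135 counts and a ratio of -0.11 (-0.45 to 0.22), which turned to 0.03 with total counts.

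Genes of Notch and ephrin signalling, which mark arteries and veins, split. NOTCH4, the Notch receptor of endothelium, had 217 counts in lean and 321 in non-lean muscle, or 14.3 and 24.0 CPM, a ratio of 0.75 (0.50 to 1.01), the highest of all members. DLL4, its arterial and tip cell ligand, had 149 and 165 counts, 9.79 and 12.3 CPM, and a ratio of 0.33 (0.005 to 0.66), whose interval held 0 with DESeq2 size factors. The Notch target HEY1 had 55 and 48 counts and a ratio of -0.01 (-0.60 to 0.58). The venous receptor EPHB4 had 220 and 128 counts and was lower at -0.59 (-0.92 to -0.27), while its arterial ligand EFNB2 had 161 and 112 counts and a ratio of -0.34 (-0.70 to 0.02).

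VEGFA and VEGFB, the growth factors of fibres, went the other way from most endothelial genes. VEGFA had 1444 counts in lean and 1965 in non-lean muscle, or 94.9 and 147 CPM, 1.55-fold higher with a ratio of 0.63 (0.53 to 0.73). Of the tested genes, 87.9% had a lower ratio than VEGFA. VEGFB, which in muscle is linked to fatty acid uptake, had 2078 and 1953 counts, or 137 and 146 CPM, a ratio of 0.10 (0.01 to 0.19), whose interval held 0 with DESeq2 size factors. ANGPT1, which perivascular cells also make, had 98 and 78 counts, 6.44 and 5.83 CPM, and a ratio of -0.14 (-0.59 to 0.30). The median of these 3 was 0.10, which lay 0.40 above the endothelial median.

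The remaining ligands were low in counts. ANGPT2 had 31 and 43 counts, 2.04 and 3.22 CPM, and a ratio of 0.65 (-0.04 to 1.37). VEGFC had 71 and 47 counts and a ratio of -0.40 (-0.97 to 0.14). Neither interval excluded 0, although that of ANGPT2 lay above 0 with total counts (0.10 to 1.52). TEAD4, placed apart from the endothelial classes, had 983 and 554 counts, 64.6 and 41.4 CPM, and was lower at -0.64 (-0.79 to -0.49).

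A ratio of counts of a pair of genes within a library does not depend on scaling between libraries. Such ratios were taken for 27 pairs that were chosen after the counts were seen, and for the sums of the classes. The summed ligands stood at 0.228 of the summed endothelial counts in lean and 0.359 in non-lean muscle, a log2 change of 0.66 (0.58 to 0.73). There were 1.24 counts of VEGFA per count of PECAM1 in lean and 2.64 in non-lean muscle, a change of 1.09 (0.92 to 1.26). VEGFB against PECAM1 changed by 0.56 (0.40 to 0.72), and ANGPT1 against PECAM1 by 0.32 (-0.15 to 0.78), an interval that held 0. A change of such a ratio holds the lower value of PECAM1 too, which by itself stood at -0.46, while VEGFB stood at 0.10. Counted on the leading transcript alone, PECAM1 stood at 0.45 and VEGFA at 0.89. The change of the summed ratio depends on AQP1 too, without which the summed endothelial level stood at -0.21 in place of -0.33.

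Ligand to receptor ratios were higher in the non-lean library for VEGFA and ANGPT2, and lower for VEGFC. VEGFA against KDR changed by 0.69 (0.20 to 1.18) and against FLT1 by 0.66 (0.41 to 0.91). The reads of KDR lay mostly on a different transcript in each library, and on its leading transcript alone KDR stood at -7.14. VEGFB against FLT1, its receptor, changed by 0.13 (-0.12 to 0.37). ANGPT2 against TEK changed by 1.36 (0.52 to 2.21), from 0.250 to 0.642 counts of ANGPT2 per count of TEK. On leading transcripts alone, TEK was not lower but stood at 0.37, beside 0.91 for ANGPT2. ANGPT2 against ANGPT1 changed by 0.80 (-0.04 to 1.65), which held 0. VEGFC against FLT4 went the other way, by -0.84 (-1.55 to -0.13).

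**Figure D3:**
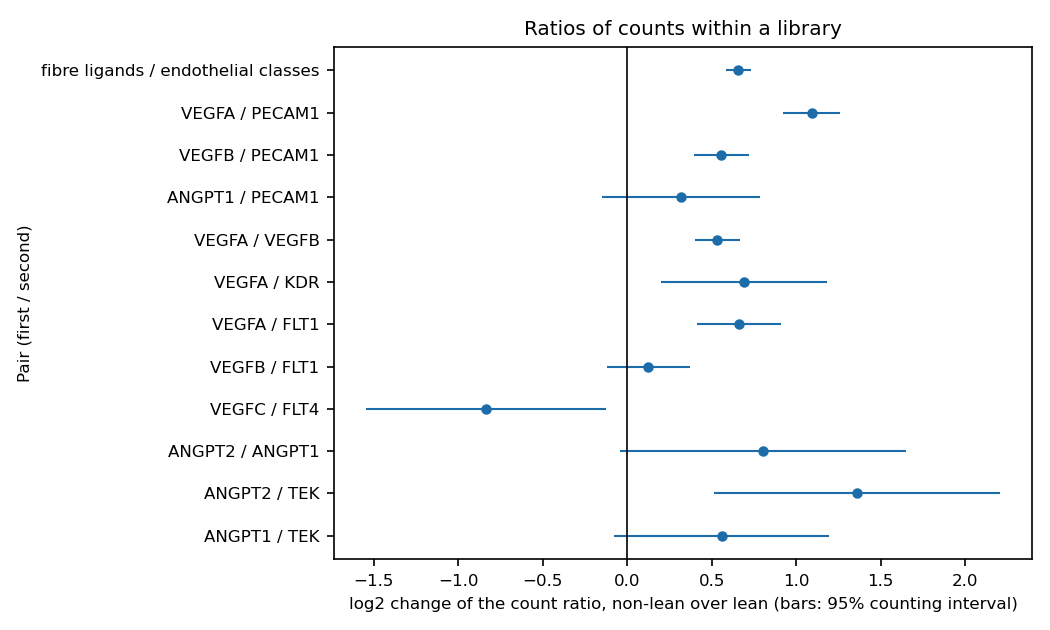
Change between libraries (log2, non-lean over lean) of the ratio of counts of the first to the second gene or sum within a library, with 95% counting intervals as bars. VEGFA is higher against PECAM1, KDR and FLT1, by 1.09, 0.69 and 0.66, whereas the interval of VEGFB against FLT1 holds 0.

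Endothelial genes also shifted against each other. Relative to PECAM1, NOTCH4 was 2.32-fold higher in the non-lean library, at 1.21 (0.92 to 1.502), and ENG 1.72-fold higher, at 0.78 (0.59 to 0.98). GPIHBP1 and PLVAP stood 0.69 (0.41 to 0.97) and 0.68 (0.35 to 1.001) higher against PECAM1. CDH5 was lower against PECAM1 by -0.42 (-0.65 to -0.19) and AQP1 by -0.28 (-0.43 to -0.12). These intervals excluded 0, but the pairs were chosen after the counts were seen and include the members with the highest and lowest ratios. The intervals also leave out the division of reads among transcripts. Counted on its leading transcript alone, PECAM1 stood at 0.45 in place of -0.46.

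The division of reads among transcript models differed between the libraries for several members. Models are numbered here by their summed counts over both libraries. Of the 39 members, 10 had 1 model in the files and 29 had several, and for 8 of these 29 another model led in each library. KDR had 79.8 expected counts on model 1 and 3.18 on model 2 in lean muscle, and 0 and 70 in non-lean muscle. ERG had 156 on model 1 and 0 on model 2 in lean muscle, and 0 and 121 in non-lean muscle. The gene sums of KDR and ERG nonetheless had ratios whose intervals held 0.

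PECAM1 had 551 and 555 expected counts on models 1 and 2 in lean muscle, and 661 and 0 in non-lean muscle. TEK had 58.5 and 65.5 in lean and 66.5 and 0 in non-lean muscle. VWF had 1109 and 259 in lean and 1043 and 0 in non-lean muscle. For PECAM1, TEK and VWF the lower gene sum in the non-lean library thus went with 0 counts on model 2. PECAM1 also differed on model 3, with 0 counts in lean and 84.5 in non-lean muscle, and on model 4, with 61.2 and 0. For AQP1, model 1 had 3737 and 1235 counts, and model 2 had 192 and 835. EPHB4 had 175 and 50.1 on model 1, and 44.7 and 77.9 on model 2. VEGFA had more counts in the non-lean library on model 1, 558 and 910, and on model 3, 102 and 388, while model 5 had 305 and 0.05 and model 6 had 0 and 271. The 10 members with 1 model were CDH5, CLDN5, SOX17, SOX18, ENG, DLL4, EFNB2, PLVAP, RAMP2 and VEGFC. No such division enters their ratios. Whether the models reflect splicing or the estimation was not tested. The labels leave unclear whether reads were single-end or paired-end.

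**Figure D4:**
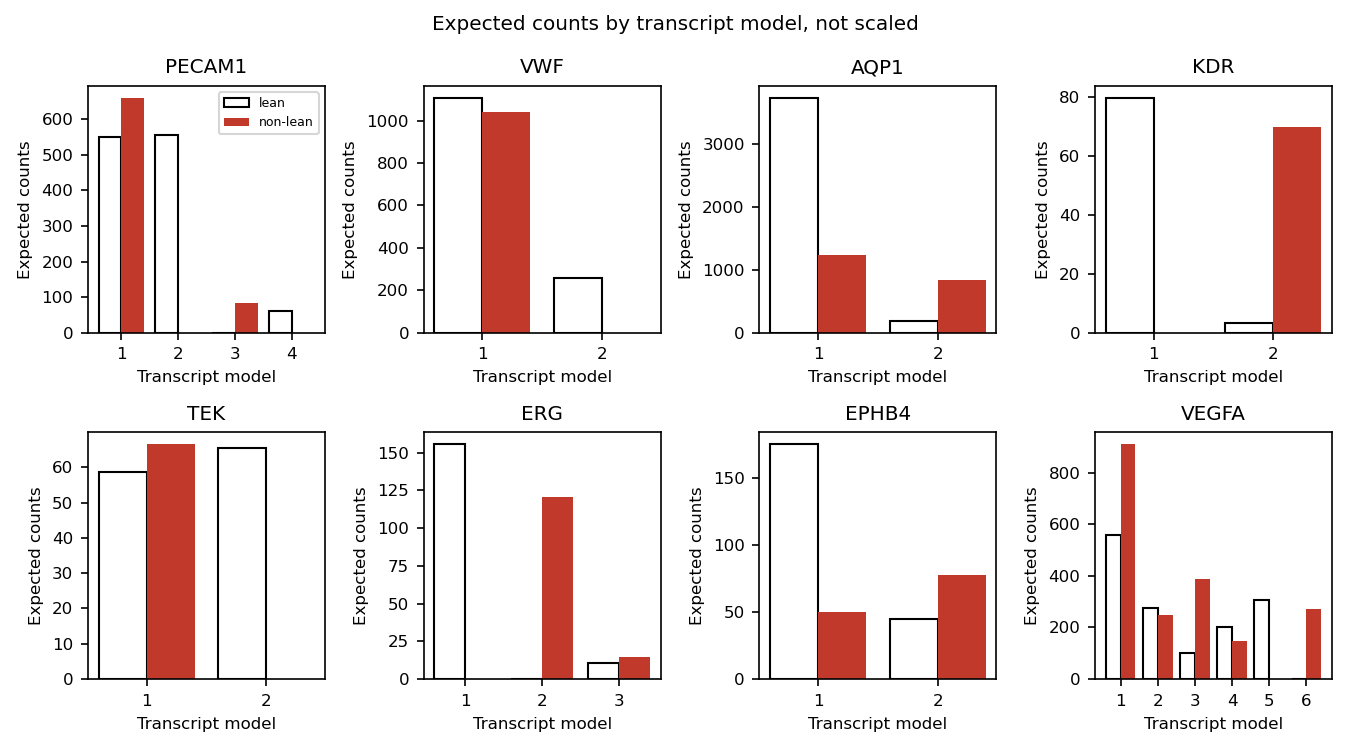
Expected counts of each transcript model with any counts, for 8 genes, in the lean (open bars) and non-lean (filled bars) libraries, without scaling. For KDR and ERG the counts lie on different models in each library, and the counts of PECAM1 and TEK on model 2 are 555 and 65.5 in lean and 0 in non-lean muscle.

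A further list of 41 endothelial genes, of which 39 were found and TIE1 is also a member, had 38 tested genes. Of these, 23 were lower (against 28.8% of all tested genes) and 2 higher (against 25.8%), with a median of -0.42. At least 2-fold lower were 4 of 38, where the share over all tested genes was 7.16%. With total counts 16 were lower (against 20.9%) and 4 higher (against 35.0%), with a median of -0.28. CD34, a surface protein of capillary endothelium that fibroblast progenitors also carry, had 1837 and 793 counts and a ratio of -1.02 (-1.15 to -0.90). THBD, thrombomodulin, which restrains clotting, had 67 and 19 counts and a ratio of -1.60 (-2.45 to -0.88). CD93 had 578 and 209 counts and stood at -1.28 (-1.52 to -1.05). LYL1, a transcription factor of blood and endothelium, was highest with 451 and 705 counts at 0.83 (0.66 to 1.005), followed by SHANK3 at 0.30 (0.14 to 0.45). MEF2C, the most abundant gene of the list with 9259 and 7973 counts, stood at -0.03 (-0.07 to 0.01).

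Genes that control VEGFA showed no common direction. In the list of hypoxia and VEGFA control, 6 of 18 tested genes were higher (against 25.8% of all tested genes) and 8 lower (against 28.8%), with a median of -0.16 that was -0.02 with total counts. HIF1A, the hypoxia factor of most cells, had 312 and 241 counts and a ratio of -0.19 (-0.43 to 0.06). EPAS1 (HIF2A), the hypoxia factor abundant in endothelium, had 1875 and 1242 counts and was lower at -0.41 (-0.51 to -0.30). EPAS1 is also on the further endothelial list above. ESRRA and PPARGC1A, which can raise VEGFA independently of hypoxia factors, were higher at 0.35 (0.26 to 0.45) and 0.36 (0.16 to 0.55). Among hypoxia targets, ANKRD37 was higher at 0.80 (0.60 to 1.005) with 327 and 500 counts, and NDRG1 was lower at -1.30 (-1.51 to -1.10) with 751 and 267 counts.

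Downstream and partner genes of VEGF and TIE signalling had 22 ratios below 0 and 2 above among 24 tested genes, or 15 below and 9 above with total counts. Over all tested genes, 6965 of 13707 ratios lay below 0, or 5486 of 13725 with total counts. In the list, intervals lay below 0 for 12 (against 28.8% of all tested genes) and above 0 for 2 (against 25.8%), and the median was -0.24. With total counts, intervals lay below 0 for 10 (against 20.9%) and above 0 for 2 (against 35.0%). The 2 higher genes were APLN and PGF. APLN, apelin, a peptide of sprouting endothelium, had 42 and 80 counts and a ratio of 1.11 (0.56 to 1.69). Its receptor APLNR, named after its values were seen, was lower, with 447 and 145 counts at -1.43 (-1.72 to -1.16). PGF, placental growth factor, which binds FLT1, had 80 and 120 counts and a ratio of 0.77 (0.35 to 1.20). The thrombospondins THBS1 and THBS2, which oppose angiogenesis, were lower, with 118 and 38 counts at -1.44 (-2.02 to -0.91) and 120 and 35 counts at -1.58 (-2.18 to -1.04). Fibroblasts and smooth muscle also make thrombospondins.

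In the Notch list 6 of 14 tested genes were lower, where the share over all tested genes was 28.8%, and 2 were higher, where it was 25.8%. The list median was -0.29. NOTCH1, which endothelial cells share with other cells, had 231 and 189 counts and a ratio of -0.10 (-0.39 to 0.18). NOTCH2 was lowest at -1.07 (-1.35 to -0.79) with 365 and 153 counts, and NOTCH3, the Notch receptor of mural cells, stood at -0.70 (-0.91 to -0.49). The targets HES4 and HEY2 were higher at 0.71 (0.24 to 1.19) and 0.33 (0.03 to 0.63), but the interval of HEY2 held 0 with DESeq2 size factors. Of the 4 Notch receptor genes, NOTCH4 was the only higher gene.

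Of 12 tested genes of endothelial lipid transport, 6 were lower (against 28.8% of all tested genes) and 3 higher (against 25.8%), with a median of -0.34. With total counts 4 were lower, where the share over all tested genes was 20.9%. LPL, the lipase that GPIHBP1 holds in capillaries and that fibres and adipocytes make, had 1029 and 478 counts and a ratio of -0.92 (-1.08 to -0.76), beside 0.23 for GPIHBP1. CD36, a fatty acid receptor of capillaries and fibres, was lower at -0.39 (-0.54 to -0.24). TCF15, a factor that with MEOX2 drives fatty acid transport genes in muscle endothelium, had 123 and 155 counts and was higher at 0.52 (0.17 to 0.87). FABP4, of capillary endothelium and adipocytes, was higher at 0.26 (0.05 to 0.47). CAVIN1, the coat protein of caveolae, had 3054 and 1295 counts and a ratio of -1.05 (-1.15 to -0.96), beside -0.69 for CAV1.

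Markers of other cell types moved beside the endothelial genes. Of 14 tested genes of pericytes and smooth muscle, 7 were lower (against 28.8% of all tested genes) and 1 higher (against 25.8%). Their median was -0.17, and their summed level was 369 CPM in lean and 301 CPM in non-lean muscle. PDGFRB, the receptor by which pericytes are recruited, had 941 and 480 counts at -0.78 (-0.95 to -0.62), while RGS5, a pericyte marker, had 870 and 854 counts at 0.16 (0.02 to 0.30). With DESeq2 size factors the interval of RGS5 held 0. Of 8 tested fibroblast genes 7 were lower (against 28.8%), with a median of -1.66 and sums of 1089 and 490 CPM. Of 8 tested macrophage genes 7 were lower (against 28.8%), with a median of -1.49 and sums of 92.3 and 30.8 CPM. Of 5 tested adipocyte genes 4 were lower (against 28.8%) and FABP4 higher (against 25.8%), with a median of -2.64 and sums of 82.4 and 65.3 CPM. With total counts 5 pericyte and smooth muscle, 7 fibroblast, 7 macrophage and 3 adipocyte genes were lower, against 20.9% of all tested genes. No gene of these 4 lists stood at 0 in either library, and the lowest were MARCO of the macrophage list with 1 and 5 counts and LEP of the adipocyte list with 14 and 2, both named after their values were seen. The part of other cell types in the endothelial ratios was not tested. Without CAV1, AQP1, NRP1, EFNB2 and HEY1, which other muscle cells are known to express too, the endothelial median was -0.20.

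Genes of the fibres themselves were mostly lower, 6 of 7 (against 28.8% of all tested genes), with a median of -0.18. With total counts 4 were lower (against 20.9%) and 2 higher (against 35.0%). Counts of these genes were so high that small ratios had intervals excluding 0, as for MYH2 at -0.05 (-0.07 to -0.04). ACTA1 stood at -0.42 and CKM, muscle creatine kinase, at -0.57. TNNT1, the slow troponin, was higher at 1.11 with 23299 and 44324 counts, and MYH1, a fast myosin, lower at -0.93. These fibre type genes moved beside VEGFA, and their part in its ratio was not tested.

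**Figure D5:**
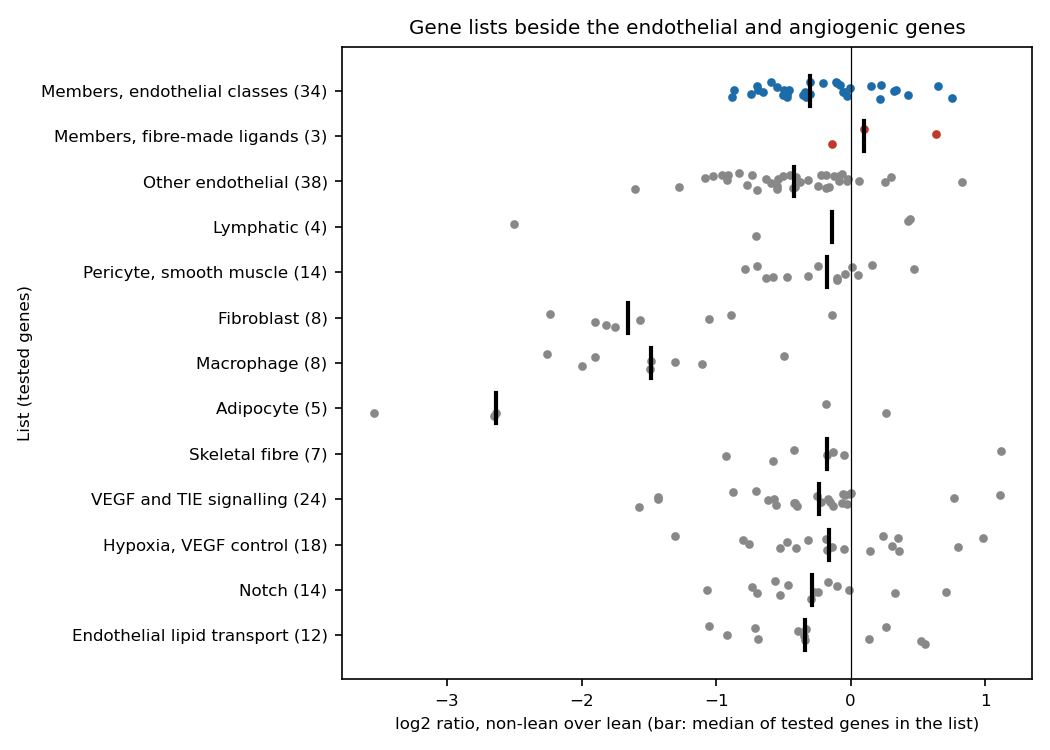
Log2 ratio of non-lean over lean for each tested gene (points) and the median (bars) of the endothelial members, the ligands and the other lists, with the number of tested genes in brackets. Endothelial members have a median of -0.31 and the ligands 0.10, whereas fibroblast, macrophage and adipocyte lists have medians of -1.66, -1.49 and -2.64.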

How the data were processed

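Polyadenylated RNA of 2 gastrocnemius samples was sequenced, 1 library per group. The authors deposited expected counts, which are estimated read counts per transcript that need not be whole, with a gene symbol for each of 76183 transcript rows per the file headers. The submitters' processing notes list RSEM 1.3.3, STAR 2.7.8a and Trim Galore 0.6.6 without their roles. No source used here gives the genome build, annotation release or filters. An expected count rests on how reads were divided among transcripts that share sequence, so values per transcript are less certain than sums per gene.

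Transcript values were summed per gene symbol and rounded, giving 28175 genes after 24 symbols turned into dates were separated by transcript. Libraries were scaled with the trimmed mean of M-values (edgeR 4.0.16, R 4.3.3; factors 0.952 for lean and 1.05 for non-lean) to CPM. The log2 ratio of non-lean over lean used a prior count of 0.5. Its 95% interval comes from the binomial split of the gene's counts between libraries (exact, Clopper-Pearson). Changes of within-library ratios have the exact conditional interval of the odds ratio. Reads copied by PCR and lacking molecular identifiers are not independent, so all intervals and floors cover counting error only. Values were computed with scipy 1.17.1, pandas 2.3.3 and numpy 2.4.6 (Python 3.11.15), drawn with matplotlib 3.10.9, and the functions were tested on simulated data. Alternatives used total counts, DESeq2 1.42.0 size factors, total counts without the 10 most abundant genes, other filters, priors and folds, unrounded sums and the leading transcript of each gene. With 1 library per group no test was made.

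The members and lists were chosen with earlier results of these data known. All 39 members were found by symbol. Of 208 genes on all lists 202 were found, 6 of them under an older or placeholder symbol through a RefSeq table of genes (assembly T2T-MFA8v1.1). Every member may be named. From the other lists the 3 most abundant genes, the 2 highest and the 2 lowest tested genes and 14 genes chosen with the lists may be named. Descriptions by protein length and by promoter sequence, although planned, were not made because the sequences were not used here.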

Additional observations from a re-analysis of the deposited data

How the results depend on the processing

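No paired analysis was possible because each group holds 1 library, and for the same reason no library could be left out. No member was at least 2-fold higher under any alternative that kept the 2-fold limit, and none was at least 2-fold lower except when only the leading transcript of each gene was counted, which gave 4 (AQP1, KDR, ERG and EPHB4). With a fold of 1.5 the counts were 2 higher and 8 lower. The endothelial median kept its sign under all alternatives, from -0.34 with identity genes only and with DESeq2 size factors to -0.16 with total counts. The median of endothelial genes less that of the ligands, -0.40, cannot move with scaling and was -0.58 with leading transcripts. The summed endothelial level, -0.33, was -0.19 with total counts, -0.28 with total counts without the 10 most abundant genes, -0.40 with leading transcripts and -0.21 without AQP1. The median of the fibre-made ligands, 0.10, was 0.24 with total counts and 0.32 with leading transcripts. With leading transcripts the sign turned for PECAM1 (0.45), VWF (0.10) and TEK (0.37), whose intervals had excluded 0, and for ICAM2, ROBO4 and ANGPT1, whose intervals had held 0, since that setting leaves out the reads given to their other transcripts. Of the 39 members, 31 kept their sign under all 4 scalings. The other 8 (ANGPT1, EMCN, ERG, ESAM, FLT1, HEY1, KDR and ROBO4) had intervals that held 0. Over all tested genes, the number at least 2-fold higher was 673 of 13707. It was 231 of 9608 at a mean CPM of at least 5, 1082 of 28175 without a filter and 1225 of 13280 with leading transcripts. The number at least 2-fold lower, 982, was 485 and 1683 under the first and last of these. Depth limits the rarer members: the interval of ANGPT2, with 31 and 43 counts, ran from -0.04 to 1.37.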

Other observations

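Markers of lymphatic vessels, which share FLT4 with the members, did not move together. PROX1, the master transcription factor of lymphatic endothelium, had 97 counts in lean and 52 in non-lean muscle and a log2 ratio of -0.71 (95% counting interval -1.23 to -0.21). LYVE1, a hyaluronan receptor of lymphatic endothelium that resident macrophages also carry, had 415 and 64 counts and a ratio of -2.50 (-2.91 to -2.13). PDPN, podoplanin, which fibroblasts also make, had 242 and 288 counts and a ratio of 0.44 (0.19 to 0.69). Only 4 of the 7 lymphatic genes reached a mean of 1 CPM. Below that limit, the chemokine CCL21 had 24 and 5 counts, MMRN1 5 and 3, and RELN 3 and 0. These genes outside the rule for naming were chosen after their values were seen.

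Of 5 red cell genes on the list 3 were found, and only HBB was a tested gene. This haemoglobin gene had 59 and 71 counts and a ratio of 0.45 (-0.06 to 0.98). With total counts its interval lay above 0. ALAS2 had 0 and 1 counts, and SLC4A1 had 0 in both libraries. A count of 0 allows up to 3 counts, which is 0.197 CPM in lean and 0.224 CPM in non-lean muscle.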
